A study of Mus musculus with 2 samples.

Results

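Genes that mark, or have been used to label, stem and progenitor cells of the gastric glands were followed in sorted cells of the mouse pylorus. They were Aqp5, Bhlha15, Lrig1, Stmn1, Runx1, Sox2, Bmi1, Vil1 and Iqgap3. All were found by their gene names on a 2-colour Agilent array, where these 9 of 27725 gene names had 15 of the 41174 gene probes. Lgr5-EGFP-ires-CreERT2 knock-in mice carry green fluorescent protein (GFP) and a tamoxifen-inducible Cre at the Lgr5 locus, so GFP brightness follows Lgr5, a Wnt pathway receptor and the marker the sort used. The pylorus of 20 mice (20 stomachs) was trypsinised and sorted by flow cytometry into cells with high GFP (GFPhigh) and cells with low GFP (GFPlow). Both populations carry the same knock-in allele, and the labels name no tamoxifen treatment, age or sex. RNA of each population was hybridised against the other on 2 arrays with the dyes exchanged, with Cy3 carrying GFPhigh on array 1 and GFPlow on array 2.

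Both arrays measure the same pair of RNA samples, 1 from each population, and so repeat 1 measurement. With no replicate of either population there is no test and no p-value. A value written as mean ± SD covers the 2 arrays and holds technical error only (n = 1 RNA sample per population). Ratios are log2 of GFPhigh over GFPlow, so that a positive value means more signal in GFPhigh. A gene was compared where its signal in the brighter population cleared the background on each array (23.1% of probes did so), and it was called where its ratio reached 2-fold in the same direction on each array.

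Glands of the pylorus renew continuously from stem cells near their base, which give rise to surface mucous cells, gland mucous cells and endocrine cells. Lgr5 marks one such population, and the other genes have come from lineage tracing, from expression in proliferating or secretory gland cells, or from work in the intestine and the gastric corpus. They span a water channel (Aqp5), a brake on growth factor receptors (Lrig1), transcription factors (Bhlha15, Runx1, Sox2), a chromatin protein (Bmi1) and cytoskeletal proteins (Stmn1, Vil1, Iqgap3), so their RNA need not lie in the same cells.

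Lgr5 itself gave ratios of 2.33 and 2.24 on the 2 arrays (2.28 ± 0.06), in the direction of the sort, and its second probe was not detected. All 5 epithelial markers were compared in the sorted cells, with a median of -0.12. They were not all even between the populations: Krt19 was called higher in GFPlow (-2.24 ± 0.04), and Krt8, at -1.19 ± 0.98, was not called. In contrast, 9 of 10 leukocyte markers and 8 of 10 fibroblast and muscle markers were detected in no channel. Detection means that the scanner software marked a spot as well above background. The Cy3 channels were the more sensitive ones: 28.6% and 31.7% of gene spots cleared the background in Cy3 on arrays 1 and 2, against 25.1% and 18.7% in Cy5. Over the 7829 genes compared, the ratios of the 2 arrays had a Pearson correlation of 0.597 and a Spearman correlation of 0.473, which describes agreement across genes and not between replicates.

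Of the 9 candidates, 6 were bright enough to compare. Aqp5 and Lrig1 were called higher in GFPhigh, and Stmn1 was called higher in GFPlow. Bhlha15 passed 2-fold on array 1 only, and Runx1 and Vil1 passed it on neither array. Sox2, Bmi1 and Iqgap3 were too dim for a ratio. Among all genes compared, 138 (1.76%) were called higher in GFPhigh and 211 (2.70%) higher in GFPlow. The median ratio of the 6 candidates was 0.60, with medians of 1.01 on array 1 and 0.59 on array 2, beside -0.06 for all genes compared, and it was -0.18 when the arrays were centred on spike-in RNA, where that of all genes was -0.81. Over all 9 candidates, with dim probes kept in, it was 0.13. In bulk samples such as these, fewer cells of a type and less RNA per cell cannot be told apart.

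**Figure D1:**
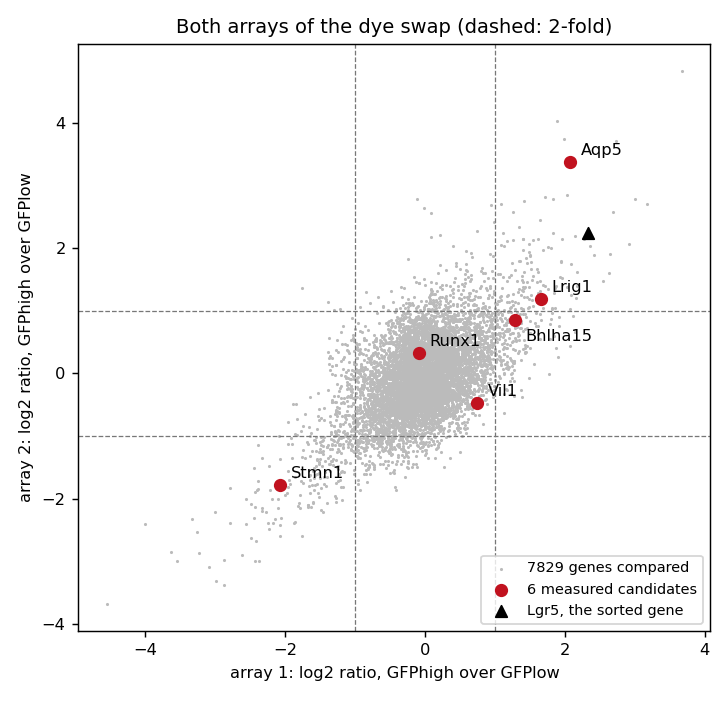
Ratio of GFPhigh over GFPlow (log2) on array 1 (x axis) and array 2 (y axis) for the 7829 genes compared (grey points), with the 6 measured candidates in red, Lgr5 as a black triangle and dashed lines at 2-fold. Aqp5 and Lrig1 lie beyond 2-fold on both arrays at the upper right and Stmn1 at the lower left, while Bhlha15 passes it on array 1 only.

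Aqp5 encodes aquaporin 5, a water channel of secretory epithelia that marks cells at the base of pyloric glands. Its probe lies at chr15:99425131-99425189 of the mouse build mm9. The signal above local background was 47175 intensity units in GFPhigh and 8963 in GFPlow on array 1, and 29676 in GFPhigh and 16799 in GFPlow on array 2. Both GFPhigh channels were thus brighter than both GFPlow channels, whichever dye carried them. The normalized ratios were 2.07 and 3.37 (2.72 ± 0.92), or 4.21-fold and 10.3-fold. That placed Aqp5 at rank 7 of 7829 genes from the GFPhigh end, with Lgr5 at rank 12. The order of these 2 genes depended on the processing. Lgr5 had the larger mean with the deposited processed signals (3.17 against 2.68) and with median centring (1.80 against 1.69). Aqp5 had the larger mean without background correction (2.75 against 1.88) and with a smaller offset in that correction (2.74 against 2.55).

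The arrays differed on how large the Aqp5 ratio was. They lay 1.30 apart, a gap that only 2.29% of the genes compared exceeded, against a median gap of 0.38. The processed signals that the authors deposited gave 2.78 and 2.58, and the deposited error of each single-array ratio was 0.33 and 0.31 on the log2 scale. Before normalization the ratios were 2.40 and 0.82, so array 2 had the smaller ratio as scanned and the larger one after loess, which removes the trend of ratio with brightness. The direction and the 2-fold call held in 14 of 14 alternative treatments, some of which leave the ratio itself as it is, between 1.69 with centring on the array median and 3.37 on array 2 alone.

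Lrig1 encodes a membrane protein that turns down ErbB receptor signalling and marks stem cells in several epithelia. Its probe lies on the minus strand at chr6:94554740-94554681 (mm9). Signals above background were 3518 in GFPhigh and 833 in GFPlow on array 1, and 1178 in GFPhigh and 2136 in GFPlow on array 2. The populations therefore overlapped as scanned: on array 2 the GFPlow channel, labelled with Cy3, was the brighter one. The normalized ratios were 1.66 and 1.18 (1.42 ± 0.34, 2.68-fold), at rank 92 of 7829. When each array was centred on its median without loess, the ratios were 1.98 and -0.62, and with centring on spike-in RNA 1.06 and 0.22, and under neither was Lrig1 called.

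Bhlha15, also known as Mist1, encodes a basic helix-loop-helix factor that enlarges the secretory apparatus of chief cells and other professional secretory cells. The probe that stood for it, at chr5:144955175-144955234 (mm9), was above background in all 4 channels, as were 17.8% of all probes. It read 739 in GFPhigh and 212 in GFPlow on array 1, and 248 in GFPhigh and 422 in GFPlow on array 2. As for Lrig1, the Cy3 channel was the brighter one on both arrays. The normalized ratios were 1.28 and 0.86 (1.07 ± 0.30, 2.10-fold), so the mean passed 2-fold while array 2 did not. With the processed signals, 1.55 and 1.36, it was called, and with centring on the array median, 1.57 and -0.44, or on spike-in RNA, 0.68 and -0.11, the arrays had opposite signs.

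A second Bhlha15 probe, at chr5:144952447-144952506 and nearer to the transcript's 5′ end, was above background in no channel, as were 67.2% of all probes. Its signals ran from 48.8 to 111, and its ratios of 0.21 and -0.30 have no interpretable direction. The Bhlha15 value therefore rests on 1 of its 2 probes.

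The starts of these 3 genes are shown because they are the candidates with positive ratios on both arrays after loess, and because Bhlha15 is itself a factor that binds E-boxes (CANNTG). Each sequence is the 250 bases before the RefSeq start in build GRCm38.p6, 5′ to 3′ on the gene's strand, with E-boxes in capitals. They lie at chr15:99590778-99591027 (plus strand) for Aqp5, chr5:144190036-144190285 (plus strand) for Bhlha15 and chr6:94700146-94700395 (minus strand) for Lrig1.
Aqp5: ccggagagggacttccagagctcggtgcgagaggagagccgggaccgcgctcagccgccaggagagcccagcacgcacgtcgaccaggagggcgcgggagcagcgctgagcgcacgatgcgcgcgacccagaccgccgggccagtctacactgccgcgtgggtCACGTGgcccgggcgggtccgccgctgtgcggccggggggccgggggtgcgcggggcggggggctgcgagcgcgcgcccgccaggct
Bhlha15: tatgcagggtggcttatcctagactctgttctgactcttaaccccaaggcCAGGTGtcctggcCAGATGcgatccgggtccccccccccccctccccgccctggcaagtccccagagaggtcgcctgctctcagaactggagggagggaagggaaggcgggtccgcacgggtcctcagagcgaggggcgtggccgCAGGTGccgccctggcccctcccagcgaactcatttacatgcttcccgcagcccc
Lrig1: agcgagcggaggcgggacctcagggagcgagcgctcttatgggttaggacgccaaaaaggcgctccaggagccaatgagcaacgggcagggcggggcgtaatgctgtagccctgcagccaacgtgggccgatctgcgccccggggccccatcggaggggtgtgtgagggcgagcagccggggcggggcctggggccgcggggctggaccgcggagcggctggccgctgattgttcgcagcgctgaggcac
Aqp5 held 1 E-box, the palindrome CACGTG, whose first base lies 87 bases before the start. Bhlha15 held 3, a CAGGTG at 200, a CAGATG at 187 and a second CAGGTG at 55 bases before the start. Lrig1 held none in this window. Over all 32851 RefSeq windows of this length, 66.2% held at least 1 CANNTG and 6.02% held CACGTG, which is one form of it. CACGTG was also in the Bmi1 window and in 1 of the 2 Runx1 windows, so among the candidates it was not limited to Aqp5. CTTTGA, a core of the sites that the Wnt pathway's TCF factors bind, was searched on both strands and was in 13.8% of all windows and in none of the 9 windows that matched 8 of the 9 candidates. Stmn1 had no entry in the table of starts. These are matches of letters, not measured binding.

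Stmn1 encodes stathmin, which binds tubulin and destabilises microtubules and is abundant in dividing cells; in gastric glands it labels proliferating progenitors. The brighter of its 2 probes, at chr4:134029522-134029581 (mm9), read 1265 in GFPhigh and 4184 in GFPlow on array 1, and 487 in GFPhigh and 7462 in GFPlow on array 2. Both GFPlow channels were brighter than both GFPhigh channels in either dye. The ratios were -2.08 and -1.78 (-1.93 ± 0.21), which is 3.81-fold higher in GFPlow, at rank 53 of 7829 from the GFPlow end. The call held in 14 of 14 alternatives, between -2.71 and -1.47.

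The second Stmn1 probe, at chr4:134026685-134026744, is printed because it read the same direction at a much weaker signal.
Stmn1 probe: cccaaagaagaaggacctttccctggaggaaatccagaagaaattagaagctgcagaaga
It gave 157 in GFPhigh and 201 in GFPlow on array 1, and 63.3 in GFPhigh and 608 in GFPlow on array 2. GFPhigh on array 2 was not well above background. Its ratios were -0.65 and -1.39 (-1.02 ± 0.53), so it passed 2-fold on array 2 only, and the processed signals gave -1.07 and -3.48. The probes agreed in direction on both arrays and differed in size.

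**Figure D2:**
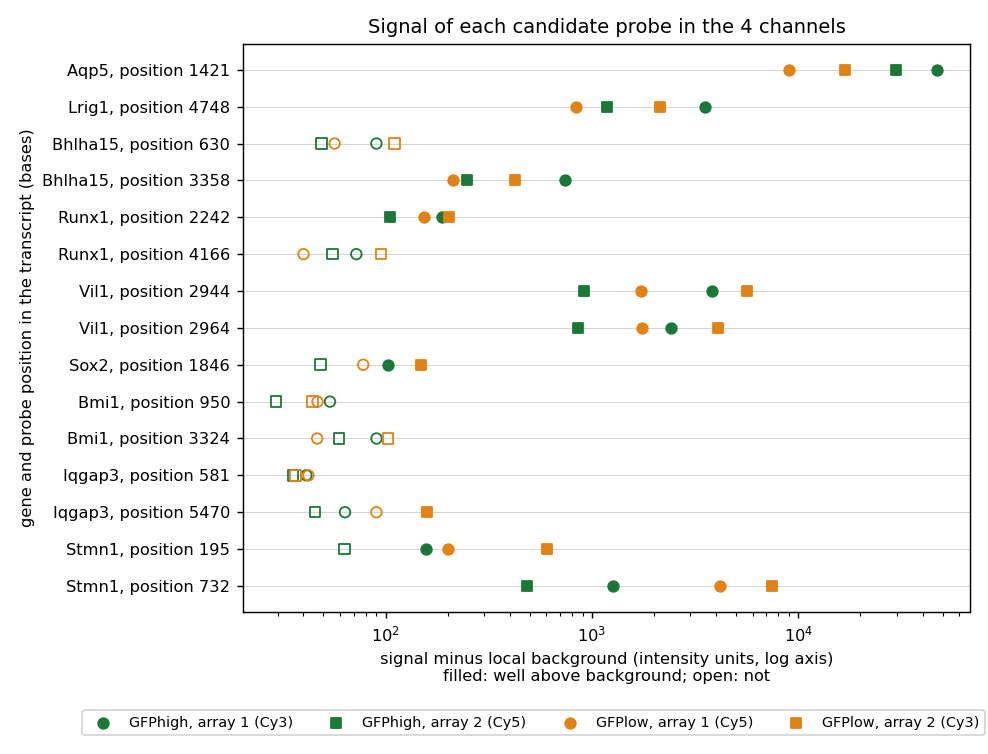
Signal above local background (x axis, intensity units, log scale) of the 15 candidate probes in the 4 channels, with GFPhigh in green, GFPlow in orange, array 1 as circles and array 2 as squares; filled points were well above background. Aqp5 has both GFPhigh points to the right of both GFPlow points and Stmn1 at position 732 the reverse, while Lrig1 and Bhlha15 at position 3358 interleave.

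Runx1 encodes a transcription factor best known from blood formation, and one of its enhancers has been used to label stem cells of the stomach. An enhancer's activity in a labelled line and the level of the whole transcript are different measurements, and these arrays give only the latter. One of its 2 probes joins sequence from distant parts of the gene. Its ends are given on the minus strand as chr16:92644455-92614003 (mm9), with a span of 30453 bases for a probe of 60 bases, so that by these coordinates the ends lie in different exons. It is shown for that reason.
Runx1 probe: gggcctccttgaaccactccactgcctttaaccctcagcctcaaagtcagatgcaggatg
It read 188 in GFPhigh and 153 in GFPlow on array 1, and 105 in GFPhigh and 203 in GFPlow on array 2, above background in all 4 channels. The ratios of -0.09 and 0.33 (0.12 ± 0.29) had opposite signs, and their mean was smaller than the spread between arrays. With centring on the array median the mean was -0.18 and with spike-in centring -0.66. The other probe, at chr16:92604472-92604413, was above background in no channel, with signals of at most 95.1.

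Vil1 encodes villin, an actin-bundling protein of the microvillus core, and its promoter has been used to label rare pyloric progenitors. Its 2 probes, at chr1:74481962-74482021 and chr1:74481982-74482041 (mm9), share 40 of their 60 bases. The first read 3799 in GFPhigh and 1737 in GFPlow on array 1, and 915 in GFPhigh and 5632 in GFPlow on array 2. Its ratios were 0.74 and -0.48 (0.13 ± 0.86), with opposite signs and a gap that 3.21% of genes exceeded. The second read 2426 and 1748 on array 1, and 860 and 4101 on array 2, for ratios of 0.09 and -0.15 (-0.03 ± 0.17). Although the probes overlap, they differed by 0.65 on array 1 and by 0.33 on array 2. Neither showed a difference between the populations larger than the difference between arrays, and with centring on the array median or on spike-in RNA the mean of the first was -0.65.

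Sox2 encodes a transcription factor of the foregut and of stomach stem cells. Its probe, at chr3:34550773-34550832 (mm9), read 102 in GFPhigh and 77.9 in GFPlow on array 1, and 48.4 in GFPhigh and 148 in GFPlow on array 2. It was well above background only in the Cy3 channel of each array, which held GFPhigh once and GFPlow once. Detection followed the dye and not the population, a pattern shared by 1243 probes (3.03%), while the reverse pattern, Cy5 on both arrays and Cy3 on neither, was seen for 0 probes. Its signal lay near the limit of detection, and its ratios of 0.01 and -0.50 give no direction.

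Bmi1 encodes a subunit of Polycomb repressive complex 1 and has been used as a marker of slowly cycling intestinal stem cells. Neither of its probes, at chr2:18605306-18605365 and chr2:18607987-18608046 (mm9), was well above background in any channel. Their signals ran from 29.4 to 53.8 and from 46.6 to 103. Iqgap3 encodes a scaffold of small GTPases that marks proliferating gastric progenitors. One of its probes, at chr3:87924765-87924824, was well above background only in GFPlow on array 2, where it read 158 against 45.5 in GFPhigh, and on array 1 it read 63.6 in GFPhigh and 90.3 in GFPlow. That pattern of detection was shared by 1445 probes (3.52%). Both ratios were -0.62, which is short of 2-fold, and GFPlow was not above background on array 1, so the probe was not compared. The processed signals gave -2.61 and -1.76, with GFPhigh above background on neither array. The other Iqgap3 probe, at chr3:87890490-87890549, was in no channel. For Bmi1 and Iqgap3 no difference between the populations could be called at these signals, which does not show that there is none.

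**Figure D3:**
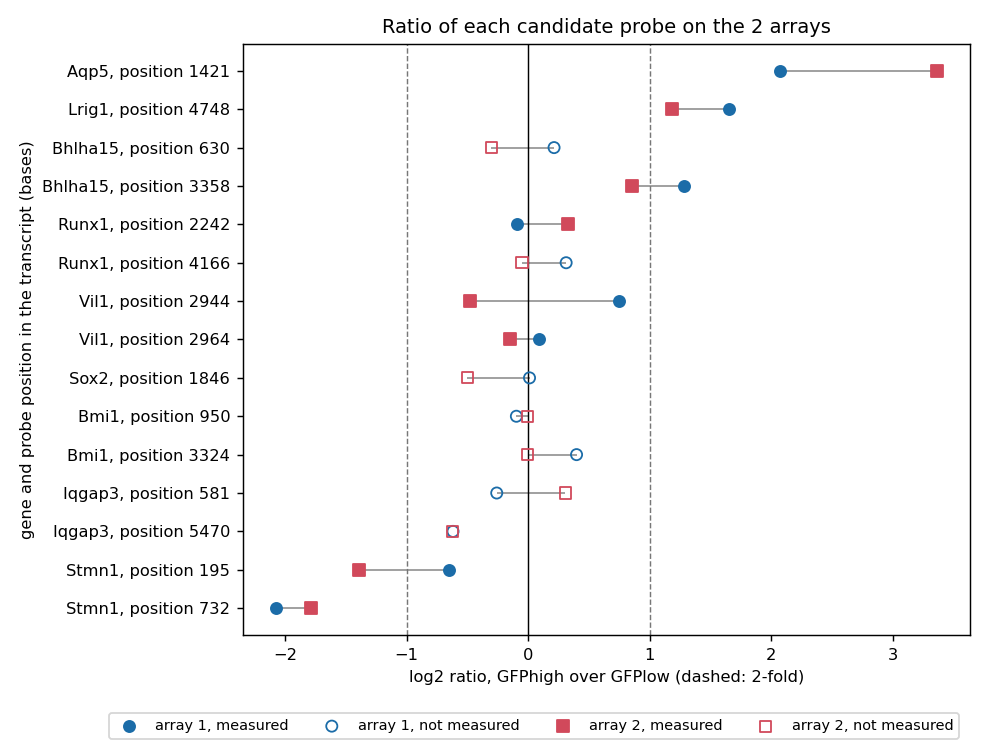
Ratio of GFPhigh over GFPlow (x axis, log2) for each of the 15 candidate probes on array 1 (blue circles) and array 2 (red squares), filled where the probe was bright enough to be compared and open otherwise, with dashed lines at 2-fold. The widest gaps between arrays are those of Aqp5 (2.07 and 3.37) and of the Vil1 probe at position 2944 (0.74 and -0.48).

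Genes related to the candidates by family or pathway were then counted. The other aquaporins that were compared lay close to or below the median of all genes, except for Aqp1. Of 10 on the array, 4 were compared and 0 were called, with a median of -0.22, and 6 were in no channel. Over all 10, with dim probes kept in, the median was 0.05. Where both populations had to be above background, Aqp1 alone was compared. Aqp1, a water channel of endothelium and other tissues, had the largest ratio of the 4, 0.93 and 1.36 (1.15 ± 0.31), and missed the call on array 1. Aqp11 was at -0.42 ± 0.36, with GFPhigh above background on 1 array only. Aqp3, the channel of basolateral membranes, was above background in GFPlow only.

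Secretory genes of the kind that Bhlha15 regulates, with other factors of secretory cell maturation, had positive ratios after loess. Of 16 genes 12 were compared, 4 were called higher in GFPhigh and 0 higher in GFPlow, and the median was 0.69. The ratios ran from 0.19 to 2.44. The list joins both kinds of gene and its calls were not separated by kind, so they do not stand for genes that Bhlha15 regulates. A link of these ratios to Bhlha15 was not tested. Nupr1, a stress-induced chromatin factor, stood at 2.44 ± 0.57, Creb3l4, a membrane-bound transcription factor, at 1.84 ± 0.41, and Spdef, a factor of goblet and mucous cell maturation, at 1.64 ± 0.18. Under centring on the array median the list's median was -0.08 and under spike-in centring -0.13, beside -0.49 and -0.81 for all genes, and 1 gene was called under either.

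Most chief cell markers and some gland mucous cell markers were called higher in GFPhigh as well. Of 4 chief cell markers 3 were called higher in GFPhigh, among them Pgc (pepsinogen C) at 3.22 ± 0.69 and Cblif (gastric intrinsic factor) at 4.25 ± 0.82, whereas Chia1, a chitinase, was at -4.11 ± 0.61. The summed level of the 4 markers was 134527 and 203162 normalized intensity units in GFPhigh on arrays 1 and 2, and 24815 and 18643 in GFPlow. The 4 gland mucous markers summed to 542190 and 996855 in GFPhigh and to 196570 and 93679 in GFPlow, and 2 were called, with Gkn3 at 2.96 ± 1.51. Tff2, at 1.82 ± 1.22, was not called. All of these markers were above background in both populations. Their part in the ratios of Aqp5, Bhlha15 and Lrig1 was not tested.

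Growth factor receptors and LRIG partners, the setting of Lrig1, showed no called gene among the 7 of 12 that were compared, and their median was -0.28. It was -0.03 over all 12 with dim probes kept in and -0.21 over the 5 with both populations above background. Errfi1, an ErbB inhibitor, was at 0.53 ± 0.12, Egfr at -0.47 ± 0.21 and Met at -0.35 ± 0.04. For Egfr and Met, GFPhigh was above background on 1 array only. Runx partners were largely undetected, with 3 of 12 compared and 0 called. Tle2 and Tle1, co-repressors that bind Runx factors, were at 0.94 ± 0.07 and 0.76 ± 0.16, and Cbfb, the obligate partner of Runx1, was at -0.11 ± 0.35. The median of these 3 was 0.76. Under spike-in centring, where 4 were compared, it was -0.32, and over all 12, with dim probes kept in, it was 0.02.

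Among Sox and foregut transcription factors, 7 of 24 were compared. Sox9, a factor of gland progenitors, was the 1 gene called, at 1.40 and 1.31 (1.36 ± 0.06) in the direction of GFPhigh, and it was not called under centring on the array median or on spike-in RNA. Klf5 was at -0.59 ± 0.24 and Foxa2 at 0.29 ± 0.35. The median of 0.07 became -0.52 with median centring and -0.71 with spike-in centring. Polycomb repressive complex 1 had 10 of 19 genes compared and 0 called, with a median of 0.05 that became -0.44 and -0.73 under the same 2 settings. Its largest ratios were those of Cbx6 (0.53 ± 0.04), Phc3 (0.46 ± 0.24) and Rybp (-0.44 ± 0.63). The complex that Bmi1 belongs to was thus detected in part, without a call in either direction.

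The microtubule genes around Stmn1 that were compared lay on the GFPlow side, and no other stathmin was bright enough to compare. Of 15 stathmins and microtubule regulators 8 were compared, 1 was called higher in GFPlow and 0 higher in GFPhigh, and the median was -0.79. Of the 8, 3 were above background in GFPlow only. The median was -0.64 over the 4 with both populations above background and -0.41 over 14 with dim probes kept in. Tubb5, a beta-tubulin, was at -1.10 ± 0.24 and missed the call on array 1. Tacc3, a spindle protein, was called, with GFPhigh above background on neither array, so its value is a bound of at least 2.15-fold higher in GFPlow. This 1 call of the list was lost with centring on the array median and where both populations had to be above background. Of 20 proliferation genes 19 were compared and 12 were called higher in GFPlow and 0 higher in GFPhigh, with a median of -1.25. Of the 19, 6 were above background in GFPlow only, and 2 of the 12 calls were among these. Where both populations had to be above background, 9 were compared and 8 were called higher in GFPlow, with a median of -1.43. Mki67, the gene of the Ki-67 antigen, was at -2.28 ± 0.20, Birc5 (survivin) at -2.26 ± 0.10 and Ccnb2 (cyclin B2) at -1.94 ± 0.19. The summed level of the list was 25615 and 27906 in GFPlow and 9344 and 10299 in GFPhigh, and its part in the Stmn1 ratio was not tested.

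The 9 genes of the IQGAP and small GTPase list gave 7 ratios, of which 1 was called. Ect2, an exchange factor needed for cytokinesis, was higher in GFPlow at -1.42 and -1.57 (-1.49 ± 0.10), with GFPhigh above background on 1 array only, and the call was lost where both populations had to be above background. The list's median was -0.39, and it was -0.04 over the 4 genes with both populations above background. Racgap1 and Cit, which act in cytokinesis as well, were above background in GFPlow only and were not called. Of 16 microvillus and actin-bundling genes 7 were compared and 2 were called higher in GFPlow, with a median of -0.63. The median was 0.04 over all 16 with no filter on dim probes and -0.07 over the 5 with both populations above background, and 1 gene was called under the latter and with centring on the array median. Myo1a, the brush border myosin, was at -2.79 and -2.39 (-2.59 ± 0.28), and Ezr (ezrin) at -0.79 ± 0.38. Avil, which encodes advillin and also marks tuft cells, was above background in GFPlow only, at least 2.13-fold higher there. Vil1 was not called while Myo1a and Avil were, a difference between genes that was not tested.

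Markers of surface mucous and enteroendocrine cells were higher in GFPlow beside these lists. All 4 surface mucous markers were called, with Gkn2 at -3.24 ± 0.55, Tff1 at -3.20 ± 1.12 and Muc5ac at -2.33 ± 0.37. For 1 of the 4 the value is a bound of at least 3.07-fold, because it was above background in GFPlow only. With both populations above background, 3 were compared and 3 called. The summed level of the 4 was 252548 and 156533 in GFPlow against 17654 and 26264 in GFPhigh. Of 6 enteroendocrine markers 4 were called, with Chgb at -2.90 ± 0.51, Ghrl at -2.82 ± 0.71 and Sst at -1.67 ± 0.04. They summed to 17710 and 16316 in GFPlow and to 2900 and 3684 in GFPhigh. The sign of the chief, gland mucous, surface mucous and enteroendocrine medians held under median and spike-in centring. Of 6 markers of intestinal absorptive cells 5 were in no channel, and Fabp2 was at -2.36 ± 0.18. Their part in the ratios of Stmn1, Myo1a and Vil1 was not tested.

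Other published candidates for gastric stem and progenitor cells included genes called higher in GFPhigh. Sox9, Cd44 and Tff2 are on this list and also on lists counted above. Of 20 genes 13 were compared, 6 were called higher in GFPhigh and 0 higher in GFPlow, and the median of the 13 was 1.16. Over all 20, with dim probes kept in, it was 0.12, beside 0.01 for all genes. Where both populations had to be above background, 9 were compared and 4 were called higher in GFPhigh. Smoc2, a secreted matrix protein, had ratios of 2.93 and 2.06 (2.49 ± 0.61), with GFPlow above background on 1 array only. Cd44, a hyaluronan receptor and Wnt target, had 1.26 and 2.13 (1.70 ± 0.62). Tff2, which encodes a trefoil factor secreted by mucous glands, had 0.95 and 2.68 and so missed the call on array 1. Under centring on the array median the list's median stayed positive at 0.59 and under spike-in centring at 0.37, with 0 and 1 genes called.

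**Figure D4:**
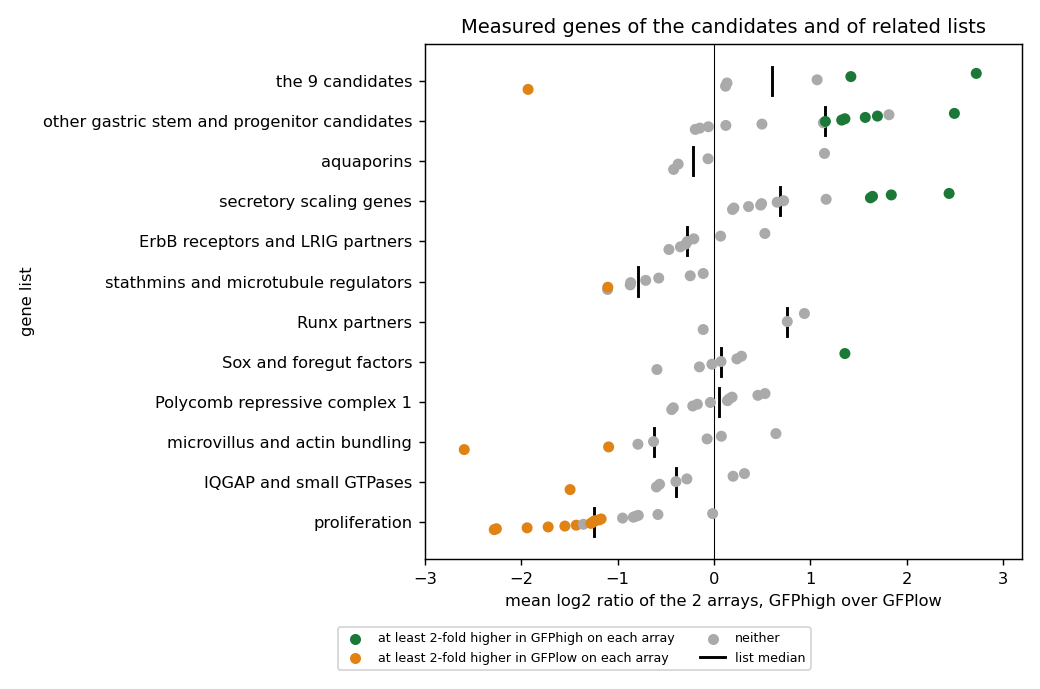
Mean ratio of the 2 arrays (x axis, log2 GFPhigh over GFPlow) for each measured gene of the candidates and of 11 related lists (rows); green points were called higher in GFPhigh, orange points higher in GFPlow, grey points neither, and black bars are list medians. The proliferation genes lie to the left, with a median of -1.25, and the measured genes among the other gastric candidates mostly to the right, with a median of 1.16.

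For the 4 candidates that passed 2-fold on at least 1 array, the 3 genes with the most similar pair of ratios were taken from 5835 genes detected in all 4 channels. Likeness was the distance between the pairs of log2 ratios, and it rests on 2 arrays only. Nearest to Aqp5 were Nupr1 (distance 0.53), Pga5 (0.63) and Col11a2 (0.66). For Lrig1 they were Mvb12b (0.059), Padi2 (0.10) and Polr3e (0.12). Muc6 (0.025), Pisd-ps3 (0.030) and H2-DMb1 (0.040) were nearest to Bhlha15, and 2200002D01Rik (0.12), Cdt1 (0.16) and Hmgb2 (0.16) to Stmn1. Aqp5 had no near neighbour at the distances seen for the other 3. At rank 7 of 7829 it lay where few genes have ratios as high, so its distances cannot be set against theirs.

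How the ratios were centred mattered more for some candidates than for others. On array 2 the Cy3 channel, which held GFPlow, had the higher median signal above background, 69.2 for gene spots against 47.1 in Cy5. Loess takes out that dye trend at each brightness, and centring on the median takes out 1 constant. On array 2 the ratio of Lrig1 went from 1.18 to -0.62 between these treatments, that of Bhlha15 from 0.86 to -0.44 and that of the Vil1 probe from -0.48 to -2.36. Runx1 went from 0.33 to -0.48. Aqp5 went from 3.37 to 1.04 and Stmn1 from -1.78 to -3.63, both keeping their sign. On array 1 the same change of treatment moved none of the 6 measured candidates across 2-fold except Vil1, which went from 0.74 to 1.06.

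**Figure D5:**
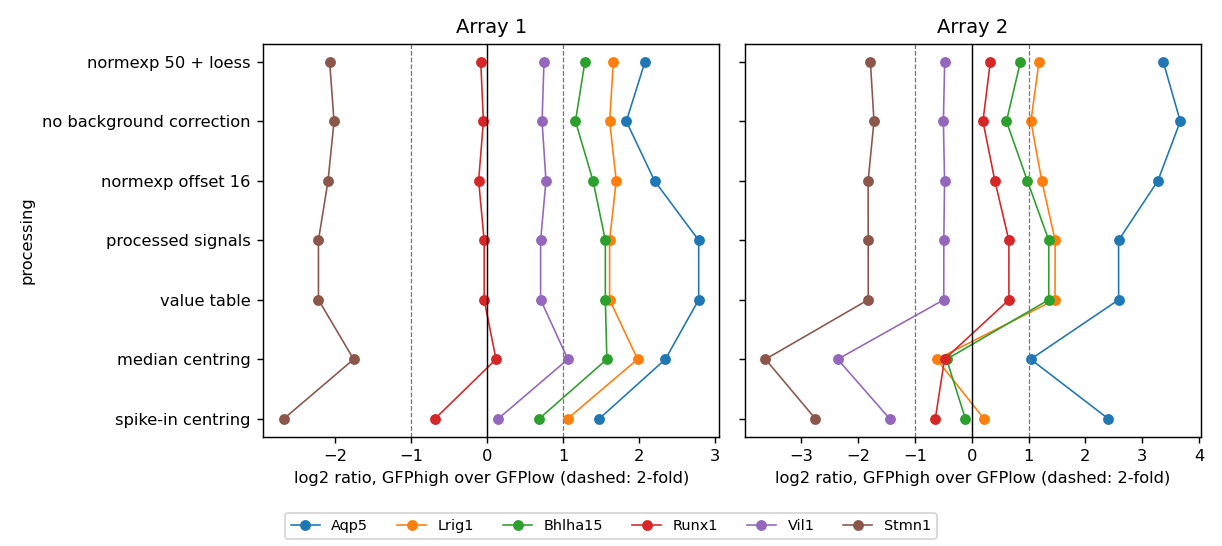
Ratio of GFPhigh over GFPlow (x axis, log2) of the 6 measured candidates on array 1 (left) and array 2 (right) under 7 treatments of the signals (rows), with dashed lines at 2-fold. On array 2, Aqp5 stays above 2-fold and Stmn1 below it in every row. Lrig1, Bhlha15 and Runx1 change sign there with median centring (-0.62, -0.44 and -0.48). With spike-in centring Bhlha15 and Runx1 change sign (-0.11 and -0.64) and Lrig1 does not (0.22).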

How the data were processed

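The authors deposited scanner output of 2 Agilent arrays with 45018 spots each, of which 43379 carried gene probes. Per the file headers, each spot has a mean intensity and a local background (median) in each channel. The deposited files also hold background-corrected, dye-normalized intensities, the log10 ratio of Cy5 over Cy3 made from them, its error, and flags for spots well above background. Feature Extraction is version 10.5.1.1 per the file headers and 9.5.3 per the submitters' processing notes. Per the labels' protocols, 150 ng of RNA was labelled by linear amplification.

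For background correction normexp was used with an offset of 50, which pulls dim ratios towards 0, and each array was then normalized by loess without weight on control spots (limma 3.58.1, R 4.3.3). Spots with outlier flags were left out, which left 41059 probes. The labelled dyes gave each ratio its direction, and the dye-swapped arrays counted as 1 replicate. A probe was compared where the population with more signal cleared background on each array (9498 probes, 23.1%), and the brightest such probe stood for its gene. Where a population was above background on neither array, the other's mean level was set against the higher of the dim probe's own level and the lowest level above background, after Aquantile normalization, as a bound. Background correction, loess and the 2-fold call were also run on simulated arrays with known changes. That run left out the filter on dim probes, and it is no measure of how many calls made here are right.

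Symbols came from RefSeq (GRCm38.p6), by accession for 25097 probes, by another accession for 166, by unchanged symbol for 6233 and by older symbol for 1603, with the file's name kept for 8075. Probe positions are those of the files (mm9), whose annotation was not used here. The candidates and lists were chosen with earlier results of these data known. Named were all 9 candidates with every probe, Lgr5, up to 3 genes per list with the largest absolute mean ratios, and the 3 genes most like each candidate that passed 2-fold. Alternatives covered background correction, signals, centring, filter, threshold, probe rule, value table and each array alone. The spike-in setting kept the loess step. It then subtracted the mean ratio of 10 spike-in probes, 0.60 and 0.97 on the 2 arrays, from every ratio. That these probes should be even between the populations was assumed and not tested. The authors' value table, a log10 ratio turned to GFPhigh, served as an alternative.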

Additional observations from a re-analysis of the deposited data

How the results depend on the processing

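Aqp5 and Stmn1 were called in the same direction in 14 of 14 alternatives, Lrig1 in 11 and Bhlha15 in 4; several, such as other filters and thresholds, leave the ratio of a candidate as it is. Candidates called higher in GFPhigh fell from 2 to 1 with median centring, with spike-in centring and at a 3-fold threshold. The median over the candidates, 0.60, was 0.19 with median centring, -0.18 with spike-in centring and 0.13 when dim probes were not filtered out, which takes in all 9. On array 2 alone 8 candidates passed the filter, with a median of -0.074, and on array 1 alone 7 passed, with 0.74, so these differ from the single-array medians of the 6 measured candidates. Genes called higher in GFPhigh, 138, became 352 with the processed signals and with the value table, 438 at a 1.5-fold and 32 at a 3-fold threshold, and 347 to 370 on a single array. Those called higher in GFPlow, 211, became 512 with the processed signals, 508 with the value table, 139 with both populations above background, 587 at a 1.5-fold and 72 at a 3-fold threshold, and 397 to 496 on a single array. Centring moved the split most. After loess alone 39.5% of called genes were higher in GFPhigh, and with median centring in its place 4.44% (10 against 215). With spike-in centring, a constant shift of the loess ratios on each array, it was 1.71% (23 against 1322). Of the genes on the 11 related lists, 10 were called higher in GFPhigh, against 1 with median centring, 2 with spike-in centring, 17 at 1.5-fold and 3 at 3-fold. For GFPlow the 16 list genes became 26 with the processed signals and with the value table, 35 with spike-in centring, 9 with both populations above background and 4 at 3-fold. The cause of these changes was not tested. No paired analysis was possible because each population has 1 RNA sample. Signal over background limits Sox2, Bmi1 and Iqgap3.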
